A study of Gallus gallus with 6 samples.

Results

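The genes described here encode the subunits of the 5 complexes of oxidative phosphorylation and the factors that assemble them. Members were the genes of the deposited expression table whose NCBI Gene ID carries, in the chicken RefSeq gene table, a symbol beginning with NDUF, with SDH followed by A to D, with UQCR, with COX followed by a digit, or with ATP5. The rule found 93 of the 20498 genes of the table. By complex these were 32 members of complex I, 4 of complex II, 8 of complex III, 9 of complex IV, 16 of ATP synthase, and 24 assembly factors and related proteins. Of the 99 symbols in the RefSeq table with these beginnings, 6 had no row that could be used (NDUFA7, NDUFB7, NDUFB11, COX1, COX2 and COX3) and were not analysed here. None of the 13 subunits encoded by mitochondrial DNA was analysed, so every member is a nuclear gene.

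Liver mRNA was sequenced from 6 male F1 chickens of the Jingxing-Huang (JXH) line, a dwarf line, at 36 weeks of age, with 1 library per bird. The 3 birds with fatty liver belonged to the paternal inheritance group, whose sires had developed fatty liver on a high-fat diet and were mated to hens that had no fatty liver. The parents of this group, hens included, were fed the high-fat diet, so the diet of either parent goes with the group as well. The 3 control birds had non-fatty liver and came from parents without fatty liver on the basal diet. All F1 birds ate the basal diet, and since all fatty livers were from the paternal group, the family origin and the liver phenotype cannot be told apart in these libraries. The library totals worked out from the FPKM were between 8860634 and 10403637 fragments, and between 15121 and 15387 genes were above 0 in each library. Control bird 2 stood apart from the other controls in the members, with the highest control level in most of them, and the counts and medians over the members are given with and without it.

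Oxidative phosphorylation takes place in the inner mitochondrial membrane. Complex I accepts electrons from NADH and complex II from succinate, and both pass them to coenzyme Q. Complex III moves the electrons on to cytochrome c and complex IV hands them to oxygen. Complexes I, III and IV pump protons while they do so, and ATP synthase (complex V) lets the protons flow back and makes ATP. The liver draws on this chain to burn fatty acids and to pay for glucose, lipid and protein synthesis. The roles given to single genes are background, known mainly from the human, bovine and yeast proteins.

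In these livers the subunits were among the most abundant mRNAs. FPKM, the deposited unit, is the number of fragments of a gene per kilobase of its exons and scaled to the total fragments of the library, so that levels can be set side by side between genes. Of the 93 members, 91 averaged 1 FPKM or more across the 6 birds and were tested, 67 of them structural subunits. The median level of the 67 subunits was 149.8 FPKM, against 6.86 FPKM for all 10886 tested genes, and 48 of the 67 had a mean of at least 100 FPKM. The median subunit stood at the 95.7th percentile of level among all tested genes. The 24 assembly factors, which help to build the complexes and mostly do not stay in them, had a median of 12.6 FPKM and a median percentile of 67.2.

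By complex, complex II had the lowest median (84.5 FPKM), followed by complex I (115 FPKM), complex III (174 FPKM), ATP synthase (235 FPKM) and complex IV (266 FPKM). Within a complex the proteins are used in fixed ratios, but the mRNA levels were spread widely. In complex I the means ran from 38.9 FPKM for NDUFS4 to 492 FPKM for NDUFB2, both accessory subunits. The 7 core subunits of complex I, which hold the flavin and the iron-sulfur clusters and form the coenzyme Q site, had a median of 65.0 FPKM, against 124 FPKM for the 25 accessory subunits. In complex II the range was 42.9 FPKM for SDHA, the flavoprotein that oxidises succinate, to 143 FPKM for SDHD, a membrane anchor. In complex III it was 94.7 FPKM for UQCRC1, a core protein, to 517 FPKM for UQCRHL, a hinge-like subunit. In complex IV it was 74.2 FPKM for COX7A2 to 716 FPKM for COX7C, the highest mean of all members. In ATP synthase it was 84.5 FPKM for ATP5D, the delta subunit of the central stalk, to 474 FPKM for ATP5I, subunit e of the membrane part.

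**Figure D1:**
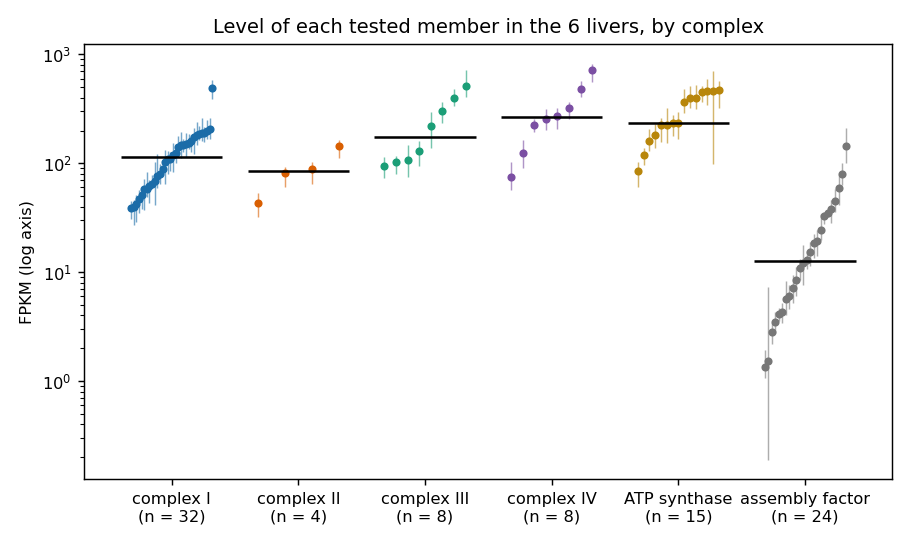
FPKM (log axis) of the 91 tested members, grouped by complex. Each point is the mean of the 6 birds, each thin line runs from the lowest to the highest bird, and the black bar is the median of the group, from 12.6 FPKM for assembly factors to 266 FPKM for complex IV. The long line among the assembly factors is COX20, which ranged from 0.189 to 7.33 FPKM.

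Short mRNAs stood higher on this scale. The exon length behind each FPKM had a median of 750 bases over the 67 subunits and 2457 bases over all tested genes. Over the 67 subunits, Spearman's rho between exon length and mean FPKM was -0.61, a correlation across genes of the same libraries, which are not independent of each other. The lowest levels of complex II (SDHA, 2381 bases), complex III (UQCRC1, 1649 bases) and complex IV (COX7A2, 959 bases) belonged to the longest exons of their complexes. In complex I and ATP synthase this was not so. There the lowest were NDUFS4 (2068 bases) and ATP5D (1377 bases), and the longest were NDUFS1 (3282 bases) and ATP5F1AZ (1896 bases).

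Some subunits have isoforms encoded by several genes, and levels are given here only for the isoforms that were matched. The c subunit forms the rotating ring of ATP synthase and is made from 3 genes with the same mature protein. ATP5G1 had a mean of 458 FPKM, ATP5G3 of 225 FPKM and ATP5G2 of 120 FPKM over the 6 birds. The order ATP5G1, ATP5G3, ATP5G2 was the same in all 6 birds, since ATP5G1 was between 341 and 600 FPKM, ATP5G3 between 158 and 263 FPKM and ATP5G2 between 96.4 and 139 FPKM, with ATP5G3 the higher of the last pair in every bird. The complex IV isoforms COX4I1 (321 FPKM), COX6A1 (478 FPKM), COX7A2 (74.2 FPKM) and NDUFA4 (258 FPKM) were all present, and their partner isoforms of muscle, lung or hypoxia (COX4I2, COX6A2, COX7A1 and NDUFA4L2) were not among the symbols matched and were not analysed here. NDUFA4 was first counted as a complex I subunit and is placed with complex IV. Both COX5A and ATP5F1AW, the copy of the alpha subunit gene on the W chromosome, which males do not carry, were listed at 0 in all 6 libraries. COX5A is a subunit that cells with complex IV use, so it is described only as listed at 0.

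The comparison of fatty liver with control asked whether these genes differ between the groups when no F1 bird had eaten the high-fat diet. Whether the affected birds had inherited the phenotype was not tested. A single member passed the test, SDHAF3, which was higher in fatty liver. With limma on log2(FPKM + 1) and Benjamini-Hochberg adjustment over all 10886 tested genes, 1 of 91 members (0 of 67 structural subunits) had an adjusted p under 0.05, where 1.14% of all tested genes did in either direction and 0.845% did with higher levels in fatty liver. At an unadjusted p under 0.05 there were 13 of 91 members, against 16.3% of all tested genes. These shares of members are close to the background and are not a result about the members. In whole tissue, fewer cells of a type and less RNA per cell cannot be told apart.

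SDHAF3 (Gene ID 420572) helps complex II receive the iron-sulfur clusters of its SDHB subunit. Its level was 8.18, 7.59 and 8.15 FPKM in the 3 control birds and 17.6, 14.1 and 17.7 FPKM in the 3 birds with fatty liver. The control birds lay close together and all 3 fatty livers stood above them. The mean was 7.97 ± 0.333 FPKM in controls and 16.5 ± 2.06 FPKM in fatty liver (SD, n = 3 each), a ratio of 2.06. The log2 fold change was 0.95 with a standard error of 0.16 and an adjusted p of 0.037 by limma. The values rested on 64 to 81 fragments in each control library and 129 to 170 in each fatty liver library. The direction was the same in each alternative processing, with log2 fold changes from 0.78 to 1.06, but it passed the threshold in 3 of 16 alternatives, with adjusted p between 0.036 and 0.14. After rescaling without the 50 most abundant genes its adjusted p was 0.066, and leaving out any single library put it between 0.077 and 0.14.

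The mRNAs of the complex that SDHAF3 serves did not pass the test. All 4 subunits of complex II, none with an unadjusted p under 0.05, gave log2 fold changes between 0.20 and 0.35. SDHB, the iron-sulfur subunit, was at 78.7, 86.3 and 60.8 FPKM in controls and 81.4, 84.6 and 92.0 FPKM in fatty liver, which gave a log2 fold change of 0.20 with a 95% interval from -0.21 to 0.61. SDHA was at 42.1, 45.0 and 32.01 FPKM against 40.8, 43.5 and 53.7 FPKM, a log2 fold change of 0.21 (95% interval -0.23 to 0.65). In both genes control bird 3 was the lowest of the 6 and control bird 2 lay among the fatty livers. SDHC, a membrane anchor, was at 96.1, 86.2 and 64.4 FPKM against 104, 90.1 and 89.6 FPKM. SDHD, the other anchor, was at 111, 155 and 112 FPKM against 156, 162 and 160 FPKM, so that its groups did not overlap, by a narrow margin (log2 fold change 0.35, adjusted p = 0.38 by limma). The other complex II factors also did not pass: SDHAF2, which attaches the flavin to SDHA, gave 0.42, SDHAF1 gave 0.28 and SDHAF4 gave 0.19 on the log2 scale, with intervals that included 0.

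**Figure D2:**
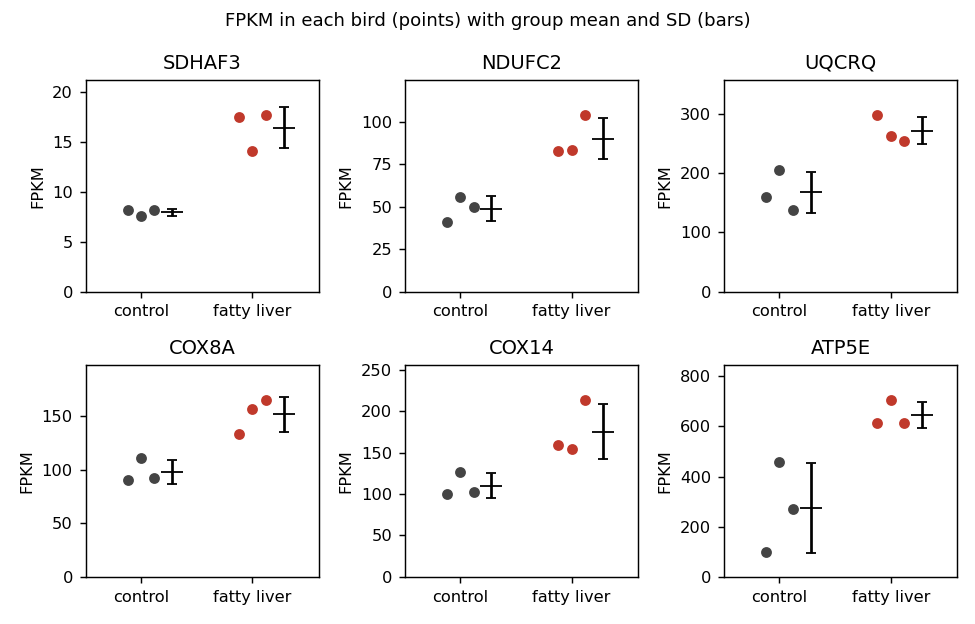
FPKM of 6 members in each bird (points), with the group mean and SD (bars, n = 3), for the member with an adjusted p under 0.05 (SDHAF3) and the members with the largest log2 fold change of complex I (NDUFC2), III (UQCRQ), IV (COX8A) and ATP synthase (ATP5E), together with COX14. The 3 fatty livers stood above the 3 controls in each panel, and the control birds of ATP5E were spread from 98.4 to 457 FPKM.

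In complex I, 25 of 32 subunits had a log2 fold change above 0 and 7 below, with a median of 0.21. None passed the test with limma, and 3 had an unadjusted p under 0.05. The median of all tested genes was itself 0.12, and 21 of the 32 lay above it. The largest difference was in NDUFC2 (Gene ID 404751), an accessory subunit of the membrane arm, at 41.2, 55.5 and 49.7 FPKM in controls and 82.7, 83.1 and 104 FPKM in fatty liver. The groups were well apart, with a ratio of means of 1.84, a log2 fold change of 0.87 (standard error 0.18) and an adjusted p of 0.068 by limma. Among the core subunits, NDUFS7 carries the last iron-sulfur cluster before coenzyme Q. It was at 115, 144 and 112 FPKM in controls and 156, 164 and 195 FPKM in fatty liver, also without overlap (log2 fold change 0.47, adjusted p = 0.23 by limma). NDUFV1 binds NADH and the flavin and was at 127, 148 and 139 FPKM against 167, 153 and 157 FPKM. NDUFS1, the largest core subunit, was at 47.9, 44.5 and 34.6 FPKM against 57.0, 50.03 and 48.3 FPKM. In both the lowest fatty liver lay only just above the highest control, with log2 fold changes of 0.21 and 0.29 and intervals that included 0.

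Core subunits without overlap between the groups thus included NDUFS1, NDUFS7 and NDUFV1, where 18.3% of all tested genes had all fatty livers higher. After rescaling without the 50 most abundant genes, NDUFS7 alone of these stayed without overlap. The median log2 fold change of the 7 core subunits was 0.29, against 0.17 for the 25 accessory subunits, and this difference was not tested. NDUFS3, which belongs to the same core, went the other way, at 63.2, 78.4 and 63.4 FPKM in controls and 59.8, 64.0 and 61.1 FPKM in fatty liver (fold change on the log2 scale -0.14, 95% interval -0.50 to 0.22). The lowest value of the complex was that of NDUFA5, an accessory subunit of the peripheral arm, at 49.4, 84.0 and 53.1 FPKM against 51.4, 60.3 and 52.1 FPKM. Its log2 fold change was -0.15 (95% interval -0.66 to 0.37), and control bird 2 alone stood above the other birds. NDUFB2, the most abundant subunit of the complex, was at 389, 580 and 521 FPKM against 483, 500 and 480 FPKM, a log2 fold change of -0.01 (95% interval -0.43 to 0.42). NDUFB8, named after its values were seen, showed the opposite picture, with controls within 148 to 158 FPKM and fatty livers within 187 to 241 FPKM (log2 fold change 0.44, adjusted p = 0.22 by limma).

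In complex III, 7 of 8 subunits had a log2 fold change above 0, with a median of 0.24. None passed the test with limma, and UQCRQ alone had an unadjusted p under 0.05. UQCRQ (Gene ID 416336), a small subunit that sits against cytochrome b, was at 160, 205 and 137 FPKM in controls and 298, 262 and 255 FPKM in fatty liver. All 3 fatty livers were above the controls. Its log2 fold change was 0.71 (standard error 0.19) and its adjusted p was 0.12 by limma. UQCRFS1, the Rieske iron-sulfur protein, was at 102, 160 and 94.1 FPKM against 129, 151 and 138 FPKM, and UQCRC1 was at 83.5, 96.4 and 73.8 FPKM against 105, 94.7 and 115 FPKM. In both, control bird 2 lay within or above the fatty livers, and the log2 fold changes were 0.26 and 0.31. The lowest value of the complex was that of UQCRHL, at 409, 721 and 517 FPKM against 502, 505 and 448 FPKM (log2 fold change -0.14, 95% interval -0.65 to 0.37).

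In complex IV, 7 of 8 tested subunits had a log2 fold change above 0, with a median of 0.18. None passed the test with limma, and COX8A alone had an unadjusted p under 0.05. COX8A (Gene ID 775974), a short subunit of the membrane part, was at 90.7, 111 and 92.9 FPKM in controls and 133, 157 and 165 FPKM in fatty liver. The groups did not overlap, and the log2 fold change was 0.62 with a standard error of 0.17 (adjusted p = 0.12 by limma). COX7C, the most abundant member, was at 563, 780 and 556 FPKM against 813, 820 and 763 FPKM. Only control bird 2 reached into the range of the fatty livers, and the log2 fold change was 0.35 (95% interval -0.06 to 0.77). COX4I1, a large nuclear subunit involved in the response to ATP, was at 257, 363 and 321 FPKM against 323, 350 and 314 FPKM, a log2 fold change of 0.08 (95% interval -0.32 to 0.49). COX6A1 gave 0.10, NDUFA4 0.21 and COX7A2, the lowest of the complex, -0.06 on the log2 scale, with intervals that included 0.

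In ATP synthase, 13 of 15 tested subunits had a log2 fold change above 0, with a median of 0.25. None passed the test with limma, and ATP5E and ATP5F1AZ had an unadjusted p under 0.05. ATP5E (Gene ID 768660), the epsilon subunit of the central stalk, was at 98.4, 457 and 269 FPKM in controls and 612, 704 and 616 FPKM in fatty liver. The fatty livers lay close together, while the controls were spread widely. The log2 fold change was 1.48, the largest of all members, with a 95% interval from 0.37 to 2.58 and an adjusted p of 0.19 by limma. Without control bird 1 it was 0.87 and without control bird 2 it was 1.97. ATP5F1AZ, the alpha subunit gene of the catalytic head, was at 188, 244 and 166 FPKM against 293, 254 and 266 FPKM, without overlap (log2 fold change 0.46, adjusted p = 0.28 by limma). For the next subunits of the head and stalk the intervals included 0. ATP5D, the delta subunit, was at 61.1, 82.9 and 78.9 FPKM against 86.5, 94.6 and 103 FPKM, without overlap (log2 fold change 0.35, 95% interval -0.05 to 0.76). ATP5B, the beta subunit that makes the ATP, was at 377, 490 and 369 FPKM against 501, 483 and 513 FPKM (log2 fold change 0.29, 95% interval -0.10 to 0.67), and ATP5C1, the gamma subunit that turns inside the head, was at 197, 232 and 139 FPKM against 181, 176 and 168 FPKM (-0.08, 95% interval -0.56 to 0.40). The most abundant subunit, ATP5I, was at 325, 498 and 418 FPKM against 465, 575 and 563 FPKM (0.38, 95% interval -0.07 to 0.84). The c subunit genes gave log2 fold changes of 0.34 (ATP5G3), 0.25 (ATP5G2) and 0.14 (ATP5G1).

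Among the 24 assembly factors and related proteins, 17 had a log2 fold change above 0, with a median of 0.22, and SDHAF3 was the member that passed. COX14 (Gene ID 426880), which couples the making of the COX1 protein to the assembly of complex IV, was the most abundant of them, at 100, 127 and 103 FPKM in controls and 159, 154 and 213 FPKM in fatty liver (fold change on the log2 scale 0.66, standard error 0.19, adjusted p = 0.14 by limma). The groups did not overlap. The next genes were named after their values were seen. COX15, an enzyme of heme A synthesis, gave 0.52, COX11, which carries copper to COX1, gave 0.47, NDUFAF7, a methyltransferase needed for complex I assembly, gave 0.52, and ATP5S, a coupling factor B-like protein, gave 0.55 on the log2 scale. All 4 had controls below fatty livers in every bird, at levels between 4.07 and 11.2 FPKM, and adjusted p between 0.17 and 0.20 by limma. COX10, the other enzyme of heme A synthesis, was within 3.52 to 4.67 FPKM in all birds (log2 fold change -0.07, 95% interval -0.44 to 0.30). The lowest value was that of NDUFAF8, the partner of NDUFAF5 in the modification of NDUFS7, at 46.9, 58.3 and 46.0 FPKM against 35.7, 44.5 and 41.3 FPKM. It was the only member with all fatty livers below all controls, with a log2 fold change of -0.31 (95% interval -0.70 to 0.09, adjusted p = 0.42 by limma).

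Members near the filter on low values were uncertain. COX18, which inserts COX2 into the membrane, had the lowest mean of those tested (1.36 FPKM). COX20, the chaperone of COX2, passed the filter through fatty liver bird 3 alone. It had 3, 5 and 5 fragments in controls and 2, 4 and 78 in fatty liver, and its log2 fold change of 0.75 turned to -0.15 without fatty liver bird 3.

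**Figure D3:**
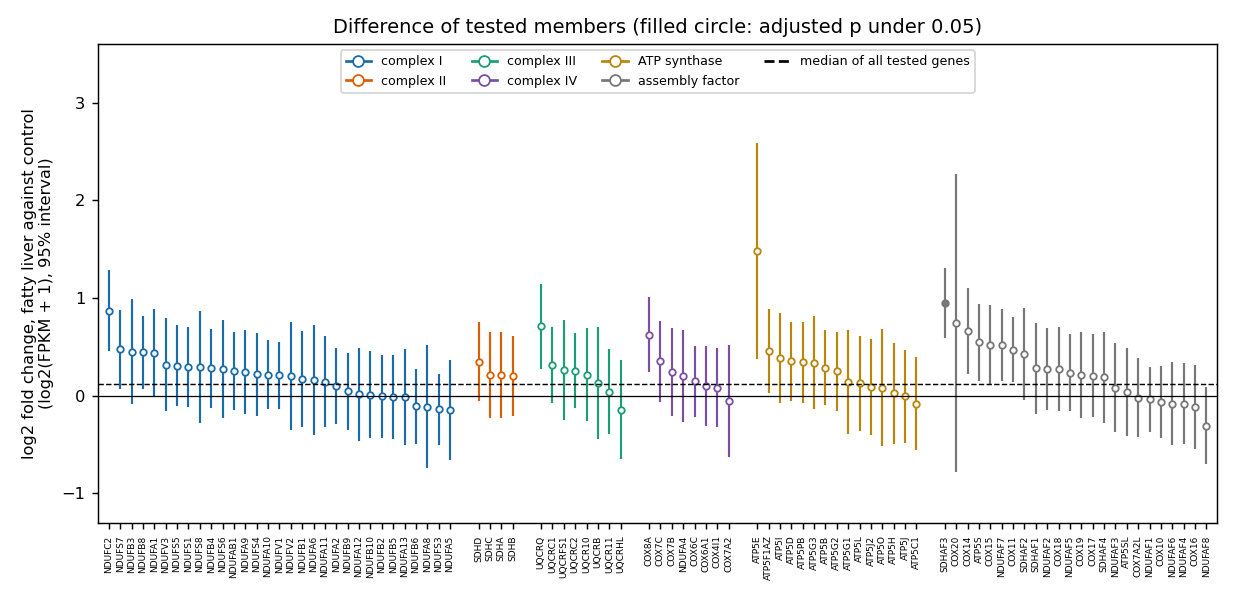
Log2 fold change (fatty liver against control, log2(FPKM + 1) scale) of 90 of the tested members, sorted within each complex. Circles are estimates, lines are 95% intervals and the dashed line is the median of all tested genes (0.12). The filled circle is SDHAF3, the member with an adjusted p under 0.05, and 78 of the intervals of all 91 tested members include 0.

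Over all 91 tested members, 73 had a log2 fold change above 0 and 18 below, with a median of 0.21 against 0.12 for all tested genes, and 61 members lay above that median. The 5 complexes were alike in this, with medians from 0.18 in complex IV to 0.25 in ATP synthase, and the differences between complexes were not tested. The members' 95% intervals had a median extent of 0.43 on either side of the estimate, on the log2 scale. Of the 91 intervals, 78 included 0 and 84 lay within 1 on either side of 0, that is within a doubling or its reverse.

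The groups did not overlap, with all fatty livers higher, for 20 of 91 members, against 18.3% of all tested genes, and with all fatty livers lower for 1 of 91, against 4.78% of all tested genes. By complex the 20 were 7 of complex I, 1 of complex II, 2 of complex III, 1 of complex IV, 3 of ATP synthase and 6 assembly factors. The share of members with higher fatty livers was close to that of all genes. Without control bird 2, a count added after the data were seen, it was 64 of 91 members higher, against 33.1% of all tested genes, and 1 of 91 lower, against 6.03%. That bird was picked as the highest control in most members, so leaving it out tends to raise their count more than that of all genes. The count was not made without the other control birds.

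FPKM were shifted toward higher values in fatty liver over all tested genes too, 67.2% of which had a log2 fold change above 0. Albumin took 14.8% to 17.9% of all FPKM in the controls and 9.60% to 11.5% in fatty livers, and its part in the shift was not tested on its own. When the libraries were rescaled leaving out the 50 genes with the highest FPKM, the median over all tested genes of the log2 fold change went from 0.12 to -0.01 and that of the members from 0.21 to 0.05. The member median was then 0.06 above that of all genes, against 0.09 in the deposited values. The groups did not overlap for 12 members with fatty livers higher, against 10.4% of all tested genes, and for 4 with fatty livers lower (NDUFB6, NDUFS3, NDUFAF1 and NDUFAF8), against 11.1%. Those higher on both scales were NDUFC2, NDUFS7, NDUFB8, UQCRQ, COX8A, ATP5E, ATP5F1AZ, SDHAF3, COX14, COX11, NDUFAF7 and ATP5S. No member passed the test with limma after rescaling, and none passed with voom on the fragments. After rescaling, 11 of 91 members had an unadjusted p under 0.05, against 15.8% of all tested genes. With voom 7 of 91 members had one, against 15.9% of all tested genes. For COX6A1, COX4I1 and ATP5G1 the log2 fold change turned after rescaling from above to below 0 (-0.066, -0.085 and -0.028).

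The members were also read against genes of like length. Among genes of 500 to 1000 bases, 41 members had a median log2 fold change of 0.20 and 1031 other genes of 0.17. Among genes under 500 bases it was 0.21 for 13 members and 0.15 for 363 other genes, and among genes of 1000 to 2000 bases it was 0.24 for 30 members and 0.16 for 2760 others. Members thus stood a little above other genes of their length in these classes, while the 2594 other genes of 4000 bases or more had a median of 0.06. When a smooth trend on length was removed from each library, the median was 0.05 for members and 0.00 for all tested genes. No member passed with limma on these values, and 9 had an unadjusted p under 0.05. Removing the trend also centred each library, and so took away the shift over all genes. Scaling the libraries to equal medians, with no length term, gave 0.068 for members and 0.002 for all tested genes. The part of length alone in these changes was not tested.

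**Figure D4:**
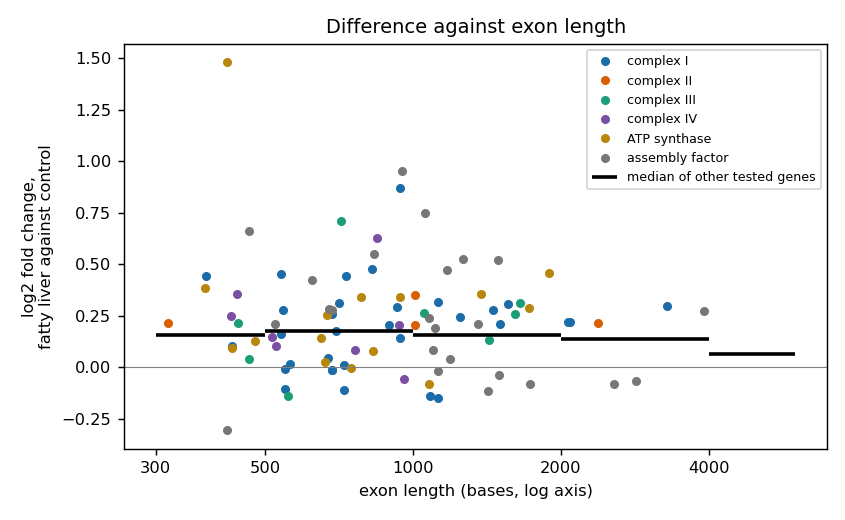
Log2 fold change (fatty liver against control) of the 91 tested members against exon length in bases (log axis), coloured by complex. Black bars are the medians of the other tested genes in each length class, from 0.17 at 500 to 1000 bases to 0.06 at 4000 bases or more. The members are spread on both sides of these bars in the classes under 4000 bases, and the longest tested member has 3912 bases.

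The control birds differed among themselves in these genes. Control bird 2 had the highest level of the 3 controls in 64 of 67 structural subunits (95.5%) and in 81 of all 91 members (89.0%), while it was the highest control in 54.4% of all tested genes. Summed over the 67 subunits, FPKM were 10716, 15424 and 10820 in the controls and 13742, 14466 and 14262 in the fatty livers. Control bird 2 thus exceeded all 3 fatty livers, and control birds 1 and 3 lay below them. The same order was seen in complex I (3470, 4685 and 3412 FPKM in controls against 4097, 4291 and 4441 FPKM), in complex III (1526, 2291 and 1556 FPKM against 1986, 1977 and 1858 FPKM), in complex IV (2008, 2787 and 2083 FPKM against 2581, 2737 and 2627 FPKM) and in ATP synthase (3384, 5289 and 3499 FPKM against 4696, 5081 and 4941 FPKM). In complex II control bird 2 was the highest control but stood below the fatty livers (328, 372 and 270 FPKM against 382, 380 and 395 FPKM).

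This pattern was less marked after rescaling but did not go away. Relative to each gene's mean over the 6 birds, the median of the 67 subunits was -0.23, 0.25 and -0.32 in control birds 1, 2 and 3 and 0.05, 0.12 and 0.11 in the fatty livers, on the log2 scale. The medians of all tested genes in the same libraries were -0.19, 0.06, -0.06, 0.09, 0.01 and 0.09. After rescaling without the 50 most abundant genes the subunits were at -0.04, 0.22 and -0.23 in controls and -0.01, 0.06 and -0.02 in fatty livers, and control bird 2 was the highest control in 55 of 67 subunits (82.1%), against 37.9% of all genes. Other genes under 1000 bases gave -0.23, 0.08 and -0.12 in control birds 1, 2 and 3 in the deposited values. Those of at least 20 FPKM among them gave -0.24, 0.08 and -0.15. Control bird 1 was thus about as low in these short genes as in the subunits. The gap between control birds 2 and 3 was smaller than that of the subunits. Control bird 2 had the smallest total of fragments as worked out from the FPKM (8860634). By the clean reads that the paper lists, control bird 3 had the fewest of the 6 libraries. The part of length, of depth or of RNA quality in this pattern was not tested.

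**Figure D5:**
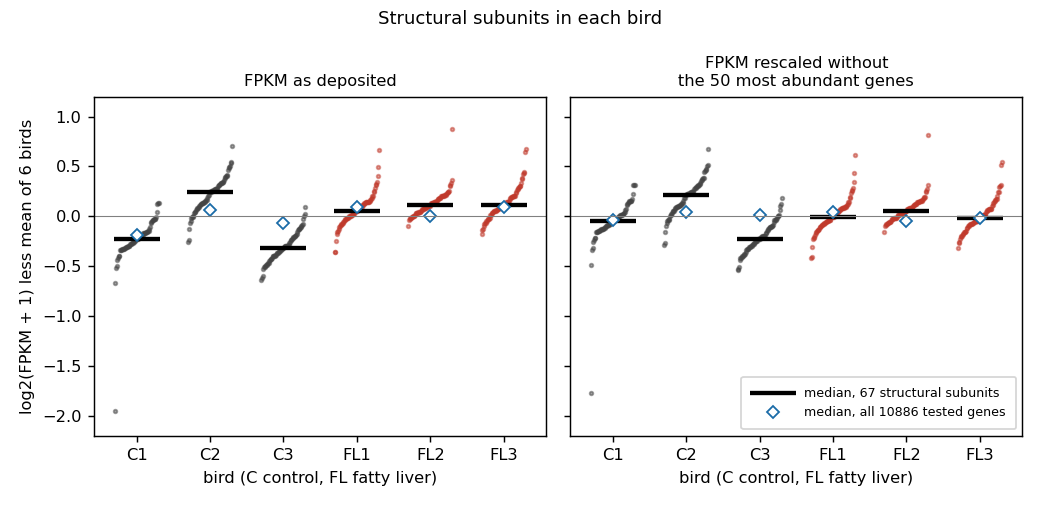
Deviation of each of the 67 structural subunits from its own mean over the 6 birds, on the log2(FPKM + 1) scale, in the deposited FPKM and after rescaling without the 50 most abundant genes. Points are subunits, black bars their median and open diamonds the median of all 10886 tested genes. The control medians were -0.23, 0.25 and -0.32 as deposited, wider apart than those of the fatty livers (0.05, 0.12 and 0.11). The lowest point of control bird 1 is ATP5E.

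With all 6 birds, the fatty livers were more alike in these genes than the controls. The median SD of log2(FPKM + 1) over the 67 subunits was 0.30 among controls and 0.11 among fatty livers, and it was larger among controls in 63 of 67 subunits. Over all tested genes the medians were 0.24 and 0.19, and the SD was larger among controls in 60.5% of genes. With 3 birds in each group this difference in spread was not tested. Without control bird 2 the median SD of the subunits was 0.11 in the remaining control birds and 0.11 in fatty livers. The SD was then larger among controls in 31 of 67 subunits. Over all tested genes the medians without this bird were 0.20 and 0.19, and the SD was larger among controls in 5442 of 10886 genes. That bird was picked as the highest control in most subunits, so leaving it out tends to lower their control SD. The control SD also came from fewer birds than that of the fatty livers. These values thus cannot show whether the difference in spread rested on control bird 2.

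The comparison of the groups moved with the choice of control birds. Without control bird 2, the median log2 fold change was 0.37 for members and 0.19 for all tested genes, 73 of 91 members lay above the latter, and 36 of 91 had an unadjusted p under 0.05, against 18.6% of all tested genes. None of the 36 passed after adjustment, and the smallest adjusted p of a member was 0.091 by limma. The medians of the complexes were then 0.35 in complex I, 0.31 in complex II, 0.41 in complex III, 0.34 in complex IV, 0.38 in ATP synthase and 0.34 among assembly factors. The log2 fold changes of NDUFB2, NDUFA5, UQCRHL, COX7A2 and ATP5C1 turned from below to above 0 without this bird (0.11, 0.086, 0.074, 0.18 and 0.082). Without control bird 3, by contrast, the members' median was 0.10 and that of all genes 0.12, so that 41 of 91 members lay above it. Without control bird 1 the medians were 0.17 and 0.06. Members with an unadjusted p under 0.05 numbered 10 and 11 of 91 without control birds 1 and 3, against 14.6% and 13.7% of all tested genes. Without fatty liver birds 1, 2 and 3 there were 11, 10 and 9 of 91, against 14.9%, 12.9% and 11.4%. Control bird 2 was picked as the highest control in most members, so leaving it out tends to raise their differences. No ground was found in the labels for leaving out any of the birds.

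Other genes that serve the mitochondrion were counted in the same fit. The citric acid cycle and the pyruvate dehydrogenase complex supply the NADH and succinate that complexes I and II use. Of 16 tested genes of this list, 2 passed the test, both higher in fatty liver, where 0.845% of all tested genes were. All 16 had a log2 fold change above 0 (median 0.31), against 67.2% of all tested genes (median 0.12). IDH3A, DLD and DLST gave only 0.02, 0.08 and 0.12, no more than the median of all tested genes. The count above 0 is on the deposited scale, which was shifted upward over all genes, and was not repeated after rescaling. DLAT (Gene ID 419796), the acetyltransferase core of pyruvate dehydrogenase, was at 28.01, 23.5 and 18.4 FPKM in controls and 69.0, 67.3 and 65.1 FPKM in fatty liver. CS (Gene ID 100858903), citrate synthase, which takes acetyl-CoA into the cycle and also feeds the export of citrate for fatty acid synthesis, was at 11.5, 14.2 and 16.5 FPKM against 31.0, 38.2 and 34.1 FPKM. In both genes the fatty livers stood far above the controls. The log2 fold change was 1.51 for DLAT (standard error 0.18, adjusted p = 0.015 by limma) and 1.24 for CS (standard error 0.18, adjusted p = 0.024 by limma). DLAT passed in 13 of 16 alternatives and CS in 11, and both passed after rescaling (adjusted p = 0.035 and 0.039). Leaving out control bird 2, fatty liver bird 2 or fatty liver bird 3 put DLAT at 0.056, 0.062 and 0.062, and put CS at 0.077, 0.10 and 0.092, while leaving out control bird 1 put CS at 0.063. PDHB, the beta subunit of the first pyruvate dehydrogenase enzyme, was at 75.0, 93.9 and 80.3 FPKM against 162, 119 and 139 FPKM (log2 fold change 0.74, adjusted p = 0.096 by limma).

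None of the other lists held a gene that passed with limma, and the number with an unadjusted p under 0.05 was 5 of 26 further assembly factors, 3 of 70 mitochondrial ribosomal proteins, 3 of 10 genes of coenzyme Q synthesis, 1 of 3 electron carriers, 1 of 9 regulators and 0 of 7 carriers and porins, where 16.3% of all tested genes had one. With so few genes in most lists, these counts are given as a description and not as a result about the lists. The 26 tested assembly factors with symbols outside the rule had a median log2 fold change of 0.30 and 22 of them were above 0. The 70 tested mitochondrial ribosomal proteins, which build the ribosome that translates the mitochondrial mRNAs, had a median of 0.23 with 59 above 0, and the 10 genes of coenzyme Q synthesis had a median of 0.26 with 9 above 0. COQ2, among the 3 of this list with an unadjusted p under 0.05, averaged 0.85 FPKM in controls and 1.74 FPKM in fatty liver. It passed the filter on low values only through the fatty livers. The 7 adenine nucleotide and phosphate carriers and porins had a median of -0.05. The 3 electron carriers had a median of 0.21 with 2 above 0. These were ETFA (0.42, unadjusted p = 0.035 and adjusted p = 0.26 by limma) and ETFDH (0.21). Cytochrome c (CYCS), the carrier below 0, was at 88.7, 167 and 108 FPKM in controls and 111, 79.7 and 73.3 FPKM in fatty liver. Its log2 fold change was -0.43 (adjusted p = 0.47 by limma), with control bird 2 again the highest. Without that bird the log2 fold change of CYCS was -0.18. The 9 regulators of mitochondrial biogenesis had a median of 0.13. Of these, 6 were above 0, among them NRF1 (0.24), GABPA (0.29) and TFAM (0.13), while PPARGC1A, PPARGC1B and YY2 were below 0. PPARGC1A, named after its values were seen, is the coactivator known for driving the expression of respiratory genes. It was at 3.96, 5.43 and 7.84 FPKM in controls and 1.58, 3.49 and 3.84 FPKM in fatty liver. Its groups did not overlap, by a narrow margin, and the log2 fold change was -0.78 (adjusted p = 0.25 by limma).

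The cell types that could contribute were checked by their markers. The 8 hepatocyte markers summed to 117748 to 146758 FPKM in controls and 121312 to 131423 FPKM in fatty livers and the striated muscle markers, a tissue rich in mitochondria, to 1.84 to 8.22 and 3.11 to 3.53 FPKM, with MB listed at 0 throughout. The macrophage markers summed to 653 to 835 FPKM in controls and 667 to 1204 FPKM in fatty livers, the 7 stellate cell and fibroblast markers to 115 to 238 and 174 to 200 FPKM, the endothelial markers to 32.4 to 53.2 and 41.5 to 48.8 FPKM, the cholangiocyte markers to 47.6 to 101 and 42.3 to 75.1 FPKM, the lymphocyte markers to 36.6 to 64.3 and 18.5 to 63.5 FPKM, and the erythroid markers to 1221 to 1335 and 952 to 1921 FPKM. These summed ranges overlapped between the groups for each cell type. The sums hide members that went apart. Of the hepatocyte markers, 6 of 8 had a log2 fold change below 0 (median -0.26), with ALB, FGA and APOB lower in every fatty liver and APOA1 higher in every fatty liver (-0.50, -0.35, -0.27 and 1.13 on the log2 scale, none with an adjusted p under 0.05 by limma). The lymphocyte markers had a median of -0.51. CD163 entered the macrophage list as CD163L and KRT19 the cholangiocyte list as KRT24 through synonyms, and without CD163L the macrophage sums were 253 to 531 FPKM in controls and 178 to 876 FPKM in fatty livers. Of all markers tested, 2 passed the test, both higher in fatty liver: SOX9 of the cholangiocyte list (log2 fold change 1.55, adjusted p = 0.038 by limma) and ALAS1 (1.95, adjusted p = 0.041 by limma), which entered the erythroid list through a shared synonym and is the heme synthesis enzyme of all tissues. The other cholangiocyte markers went both ways (EPCAM -0.59, KRT7 -0.22 and KRT24 0.13), and the median of the 4 was -0.04. Control bird 2 had the highest stellate cell and fibroblast, endothelial and striated muscle sums of all birds, the last mostly from ACTA1 (7.87 FPKM). The highest sum of each other list was in another bird. The part of any cell type in the members' levels was not tested.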

How the data were processed

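Liver mRNA of 6 F1 male chickens was sequenced by the authors from TruSeq libraries, 1 library per bird. Reads were cleaned by the authors with Sickle and SeqPrep and mapped to the chicken genome, and the deposited values are FPKM for each gene and library. The aligner, counting tool and annotation are not given in the sources used here. The table held 1 column per bird, and all 6 were used.

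Symbols were taken by NCBI Gene ID from a table of RefSeq genes on the assembly GRCg7b, which matched 16332 of 20498 IDs. This is another assembly than the authors', so no coordinates are given. The members and the gene lists were chosen with earlier results of these data known. Lists were matched by symbol or synonym, and a synonym can bring in another gene (PDHA2 for PDHA1 and YY2 for YY1, among others). The alpha, beta, gamma and c subunits of ATP synthase stand under the table's symbols ATP5F1AZ, ATP5B, ATP5C1 and ATP5G1 to ATP5G3.

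The 10886 genes that averaged 1 FPKM or more across the 6 birds were compared on log2(FPKM + 1) with limma 3.58.1 in R 4.3.3 (lmFit, then eBayes with a mean-variance trend, no covariate, two-sided), with Benjamini-Hochberg adjustment and a threshold of 0.05. All fold changes are differences of log2(FPKM + 1) between group means, which understates the change of low genes. The p-values set the difference of the group means against the spread between birds within the groups, moderated over all tested genes. Whole fragments, exon lengths and library totals were worked out from the FPKM, and gave back 100% of the values to within rounding. The deposited FPKM had no other scaling between libraries stated.

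Named genes were members with an adjusted p under 0.05, the member with the largest and smallest log2 fold change and the highest mean in each complex and among assembly factors, the main catalytic and core subunits, isoform pairs, members at the filter, and genes of the other lists with an adjusted p under 0.05. Others lie outside this rule, as NDUFS3, ATP5D, COX10, PDHB, CYCS and PPARGC1A do. They were given for their levels or named after their values were seen, and not all are marked where they appear. Alternatives were a pseudocount of 0.1, no filter, FPKM rescaled without the 50 most abundant genes, quantile normalization, scaling of the libraries to equal medians, removal of a loess trend on length (span 0.5), eBayes without a trend or robust, limma's voom on fragments, the replicate number as a block, and each library left out in turn. Both groups use the same replicate numbers, which name different birds. The limma fit and the recovery of fragments were tested on simulated data. Promoter sequences of the members were not used here. A result on a further member is not reported here, though it enters the counts and medians. Python 3.11.15, numpy 2.4.6 and pandas 2.3.3 were used for the summaries.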

Additional observations from a re-analysis of the deposited data

How the results depend on the processing

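The count of members with an adjusted p under 0.05 was 1 as reported and stayed 1 with a pseudocount of 0.1 and with eBayes without a trend or robust. It was 0 with no filter on low values, after rescaling without the 50 most abundant genes, with quantile normalization, with libraries scaled to equal medians, with the length trend removed and with voom on fragments, and it ranged from 0 to 0 when each library was left out in turn. No member was lower with an adjusted p under 0.05 in any of these. No further named member passed in any of the 16 alternatives. The median log2 fold change of assembly factors, 0.22 as reported, was 0.069 after rescaling and 0.088 with equal medians. It was 0.084 with quantile normalization, 0.059 with the length trend removed and 0.087 with voom. The fall was not particular to assembly factors. After rescaling the median went from 0.21 to 0.047 in complex I and from 0.21 to 0.048 in complex II. It went from 0.24 to 0.069 in complex III, from 0.18 to 0.0096 in complex IV and from 0.25 to 0.085 in ATP synthase. The medians over all members lay between 0.10 and 0.37 when a library was left out.

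Signs turned in at least 1 alternative for 10 of the 32 named members, 4 of them in alternatives that kept all libraries. COX6A1, COX4I1 and ATP5G1 were at -0.066, -0.085 and -0.028 after rescaling, at -0.047, -0.066 and -0.0081 with equal medians, at -0.12, -0.11 and -0.093 with quantile normalization, at -0.091, -0.10 and -0.048 with the length trend removed, and at -0.050, -0.068 and -0.010 with voom, and NDUFV1 was at -0.013 with quantile normalization. Leaving out a library gave ranges that crossed 0 for NDUFB2 (-0.17 to 0.11), NDUFA5 (-0.29 to 0.086), UQCRHL (-0.33 to 0.074), COX7A2 (-0.21 to 0.18), ATP5C1 (-0.29 to 0.082), COX4I1 (-0.056 to 0.19), ATP5G1 (-0.025 to 0.38) and COX20 (-0.15 to 1.26). The reason was not tested.

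Over all tested genes, 124 had an adjusted p under 0.05, 92 higher and 32 lower. The number was 84 (44 higher and 40 lower) after rescaling, 79 with equal medians, 78 with the length trend removed, 30 with no filter, 77, 36 and 85 without control birds 1, 2 and 3, and 119, 24 and 22 without fatty liver birds 1, 2 and 3.

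Same-numbered birds deviated together with correlations of 0.025, 0.045 and 0.048, so the numbers were not taken to pair them. With the replicate number as a block, 140 genes and 0 members passed, and SDHAF3 had an adjusted p of 0.060.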
